A study of Sus scrofa with 12 samples.

Results

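The receptor genes described here are 63 of the 7480 genes measured in pig blood mononuclear cells. They were taken by symbol. A gene was a member if its symbol began with GPR and a digit, or with CCR, CXCR, P2RY, FPR, PTGER, PTGDR, S1PR, LPAR, ADORA, C3AR, C5AR or HRH. Of the 68 symbols that matched, 5 (CCR2, CCR7, CXCR5, P2RY14 and CCRL2) were set aside by the rule. The members were 42 GPR, 6 CCR, 6 P2RY and 3 HRH symbols, 2 PTGER symbols, and 1 symbol each from S1PR, LPAR, ADORA and C3AR. No member began with CXCR, FPR, PTGDR or C5AR (0 of 63). Of the 63, 19 had a mean of 6 or more in at least 1 group, of which those reported are described one by one, and the other 44 lay under 6 in every group. HRH1, with a highest group mean of 6.05, and GPR34, with 6.06, lay just inside this limit, and GPR143, with 5.93, and CCR4, with 5.82, lay just outside it.

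The 12 libraries formed 3 groups of 4, all labelled as peripheral blood mononuclear cells (PBMC) of crossbred Duroc, Landrace and Yorkshire piglets that were 4 weeks old. The first group received a miR-124 sponge together with Salmonella, the second Salmonella alone, and the third was a non-treated control; cells were taken 12 h after treatment. The series text names the bacterium as Salmonella Typhi. A sponge is a synthetic oligonucleotide meant to bind a microRNA, here miR-124, and the titles of that group name miR-124 and Salmonella without the word sponge. No label says which of the 20 piglets (10 male, 10 female) gave which library or whether libraries came from separate animals, so each p-value measures only the spread between these libraries, which may be technical.

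G protein-coupled receptors cross the cell membrane and pass a signal from a ligand outside to a heterotrimeric G protein inside, whose subunits then act on enzymes such as adenylyl cyclase. On blood cells they read chemokines, complement fragments, nucleotides, lipids and oxysterols, and they steer where leukocytes move and how they are activated. Many genes named GPR are orphans, meaning that no ligand is generally agreed for them. The comparisons ask what Salmonella does to the levels of these receptor genes and whether the sponge alters it.

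The authors deposited 1 value per gene and library, read here as log2 units, so that 1 unit is a change of 2-fold. Depth is unknown, and because it is not stated whether values were scaled by gene length, levels are compared between groups for 1 gene and not between genes. Genes presumed silent in blood, such as those of olfactory receptors (180 symbols), averaged 4.62 with a 95th percentile of 5.24, and values near that level are read as background, where differences are compressed. Library medians lay between 5.11 and 5.31. Exact ties with another gene of the column made up 65.1% to 71.4% of values in each sponge plus Salmonella library and up to 0.0802% in each library of the other groups. Of the 63 receptor genes, 47 to 57 had such a tied value in each of those columns, and 0 had one elsewhere. This feature of the columns and the sponge treatment cannot be told apart. In pairs of control and Salmonella columns, 1696 to 1809 values were exactly equal, and 399 of the 7480 symbols (5.33%) had no match in the pig gene tables used here. Monocyte, T cell and B cell markers were present in the control libraries, with FCN1 at a mean of 13.51, CD3E at 7.79 and CD79A at 11.95, while CD3D, a defining T cell gene, averaged 4.29, under the background. Markers of cells that a mononuclear preparation should mostly lack were also high, with the red cell gene AHSP at 11.28 and the platelet gene PPBP at 11.38 in controls.

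Receptor genes were called at close to the share of all genes. In Salmonella against control libraries, 6 of the 63 rose and 14 fell (31.7%), where 33.6% of all 7480 genes were called, 15.7% higher and 17.9% lower (limma, adjusted over all genes by Benjamini-Hochberg, threshold 0.05). In sponge plus Salmonella against Salmonella libraries, 10 rose and 8 fell (28.6%), against 25.0% of all genes, 11.9% higher and 13.2% lower. In sponge plus Salmonella against control libraries, 12 rose and 11 fell (36.5%), against 40.9% of all genes, 17.9% higher and 23.0% lower. Without overlap between the groups' libraries stood 17, 17 and 19 of the 63 in these comparisons in turn, beside 35.6%, 23.8% and 39.7% of all genes. The median log2 difference of the 63 genes was -0.01, -0.02 and -0.08 in the same order, beside -0.02, -0.04 and -0.07 over all genes. Centring each library on its median shifted every log2 difference by -0.09 for Salmonella against control, -0.04 for sponge plus Salmonella against Salmonella and -0.12 for sponge plus Salmonella against control. With it the split of higher and lower calls moved to 5 and 19 for Salmonella against control, and to 6 and 20 for sponge plus Salmonella against control; over all genes it moved to 965 and 1778, and to 1062 and 2569. The comparisons share libraries, so their values are given side by side and were not tested against each other.

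**Figure D1:**
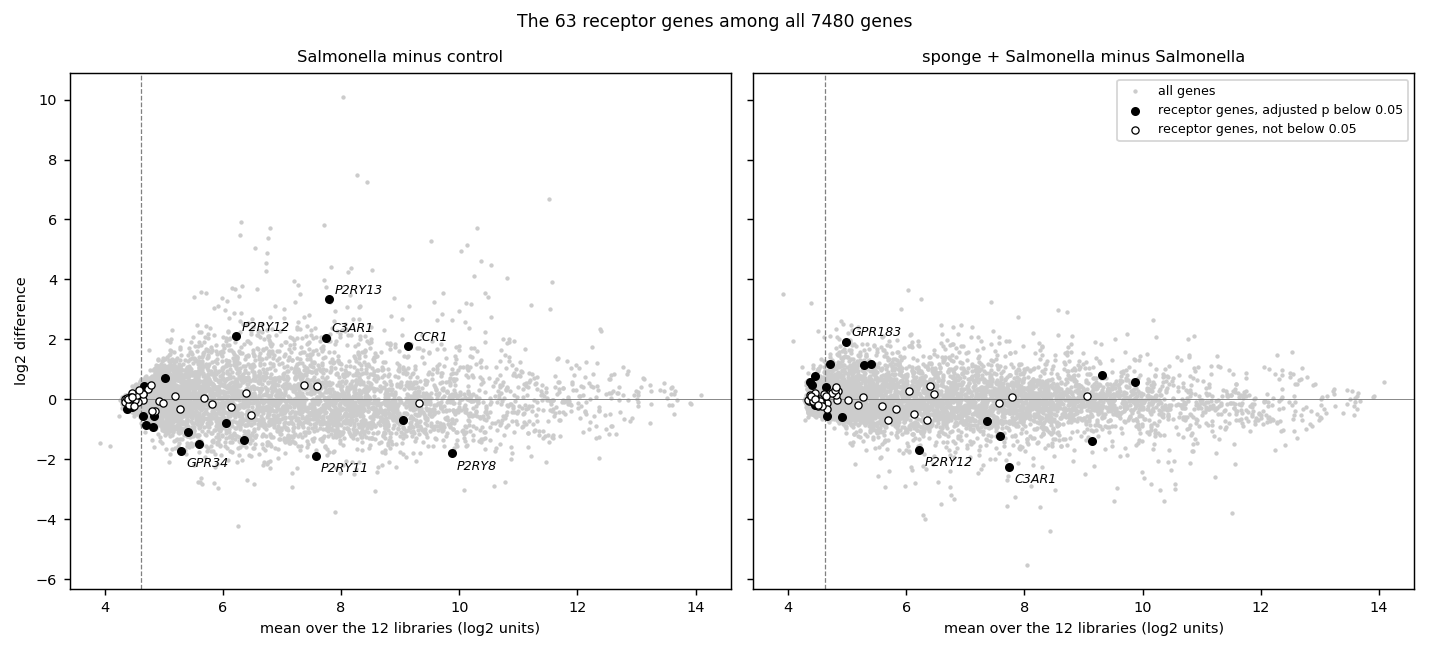
Log2 difference of every gene (vertical axis) against its mean over the 12 libraries (horizontal axis, log2 units), for Salmonella minus control and for sponge plus Salmonella minus Salmonella. Grey points are all 7480 genes, filled circles are receptor genes with an adjusted p below 0.05 and open circles are the others of the 63; P2RY13 lies at 3.34 in the first panel, and C3AR1 at -2.26 in the second, while most of the 63 sit near the silent-gene mean of 4.62 (dashed line).

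Among the chemokine receptors, CCR1 rose with Salmonella and was lower again with the sponge, while CCR9 fell. CCR1 binds inflammatory chemokines such as CCL3 and CCL5 and is known from monocytes and other myeloid cells. CCR9 binds CCL25 and guides lymphocytes to the small intestine.

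CCR1 values were 9.41, 9.11, 8.36 and 8.32 in sponge plus Salmonella libraries, 10.02, 10.06, 10.29 and 10.38 in Salmonella libraries, and 8.29, 8.62, 8.24 and 8.55 in controls. All Salmonella libraries lay above every library of the other groups. In bulk libraries like these, fewer cells of a type and less RNA per cell cannot be told apart. CCR1 was 3.39-fold higher in Salmonella than in control libraries (log2 difference 1.76 ± 0.23 SE, adjusted p = 4.55e-05). With the sponge it was lower than in Salmonella libraries by a log2 difference of -1.38 ± 0.23 (adjusted p = 8.49e-04), and against control it stood at 0.38 ± 0.23 (adjusted p = 0.192). Sponge plus Salmonella replicates 1 and 2 lay above every control, and replicates 3 and 4 lay within the control range. The gene lies on chromosome 13, from 29227218 to 29233862 (Sscrofa11.1), and its annotated span overlaps that of XCR1, a chemokine receptor gene of dendritic cells. XCR1 passed the threshold in no comparison, its differences being -0.08 for Salmonella against control, -0.24 for sponge plus Salmonella against Salmonella and -0.32 for sponge plus Salmonella against control (adjusted p = 0.819, 0.44 and 0.263).

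CCR9 values were 5.77, 5.21, 4.80 and 5.93 in sponge plus Salmonella libraries, 5.19, 6.04, 6.03 and 7.24 in Salmonella libraries, and 7.57, 8.08, 7.17 and 7.17 in controls. Sponge plus Salmonella libraries were all below the controls, and Salmonella replicate 4 reached into the control range. The log2 difference was -1.37 ± 0.38 in Salmonella against control (adjusted p = 0.0128) and -2.07 ± 0.38 in sponge plus Salmonella against control (adjusted p = 8.67e-04). Between sponge plus Salmonella and Salmonella it was -0.70 ± 0.38 (adjusted p = 0.193, 95% interval -1.52 to 0.12).

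The complement receptor C3AR1, which binds the fragment C3a released when complement component C3 is cleaved, had the pattern of CCR1. Its values were 7.66, 7.06, 5.79 and 7.18 in sponge plus Salmonella libraries, 9.34, 8.93, 9.54 and 8.90 in Salmonella libraries, and 7.12, 7.58, 6.53 and 7.25 in controls. Salmonella libraries did not overlap either other group. C3AR1 was 4.16-fold higher in Salmonella than in control libraries (log2 difference 2.06 ± 0.34, adjusted p = 3.40e-04). In sponge plus Salmonella libraries it was 4.77-fold lower than in Salmonella libraries (log2 difference -2.26 ± 0.34, adjusted p = 4.90e-04), and against control the difference was -0.20 ± 0.34 (adjusted p = 0.657, 95% interval -0.91 to 0.52). C3AR1 lies on chromosome 5, from 63088778 to 63098750.

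Of the 10 receptors for nucleotides, adenosine and histamine, 2 rose and 3 fell in Salmonella against control libraries (50.0%, beside 33.6% of all genes). In sponge plus Salmonella against Salmonella libraries 1 rose and 1 fell (20.0%, beside 25.0%). In sponge plus Salmonella against control libraries 1 rose and 3 fell (40.0%, beside 40.9%). P2RY12 and P2RY13 are receptors for ADP, P2RY12 being best known as the target of antiplatelet drugs. P2RY11 is a receptor for ATP in human cells. P2RY8 is known from human germinal centre B cells, where it holds cells in place. ADORA3 is an adenosine receptor and HRH1 a histamine receptor.

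P2RY13 values were 8.84, 9.33, 8.88 and 8.77 in sponge plus Salmonella libraries, 9.17, 8.81, 9.36 and 8.20 in Salmonella libraries, and 4.46, 5.89, 5.97 and 5.86 in controls. Both treated groups lay more than 2 log2 units above the highest control. The difference from control was 3.34 ± 0.32 for Salmonella (10.1-fold, adjusted p = 4.42e-06) and 3.41 ± 0.32 for sponge plus Salmonella (10.6-fold, adjusted p = 2.85e-05). Between the treated groups it was 0.07 ± 0.32 (adjusted p = 0.892, 95% interval -0.62 to 0.76).

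P2RY12, whose annotated span begins 9.07 kb from the end of P2RY13 on chromosome 13, also rose with Salmonella but was lower with the sponge. Its values were 5.86, 6.56, 4.95 and 5.80 in sponge plus Salmonella libraries, 6.83, 7.50, 7.29 and 8.31 in Salmonella libraries, and 4.95, 5.66, 5.03 and 5.91 in controls. Every Salmonella library lay above all others. The difference was 2.10 ± 0.37 in Salmonella against control (adjusted p = 5.99e-04), -1.69 ± 0.37 in sponge plus Salmonella against Salmonella (adjusted p = 0.00491) and 0.40 ± 0.37 in sponge plus Salmonella against control (adjusted p = 0.397). Both genes lie within the annotated span of MED12L, which was not analysed here, and it is not stated whether reads were counted by strand, so reads of overlapping genes cannot be told apart.

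P2RY11 and P2RY8 went the other way. P2RY11 values were 6.56, 6.37, 7.02 and 7.45 in sponge plus Salmonella libraries, 6.51, 7.43, 6.94 and 7.06 in Salmonella libraries, and 9.27, 8.57, 8.82 and 8.84 in controls. Both treated groups lay below every control. P2RY11 was 3.72-fold lower in Salmonella than in control libraries (log2 difference -1.89 ± 0.26, adjusted p = 7.69e-05) and 4.08-fold lower in sponge plus Salmonella than in control libraries (-2.03 ± 0.26, adjusted p = 8.44e-05). Between the treated groups the difference was -0.13 ± 0.26 (adjusted p = 0.722, 95% interval -0.69 to 0.42). On chromosome 2 the span of P2RY11, 68962996 to 68966224, overlaps only at its end that of EIF3G, 68966221 to 68970648. EIF3G, a translation initiation factor gene, was also lower. Its log2 difference was -0.82 ± 0.14 in Salmonella against control libraries (adjusted p = 3.61e-04). In sponge plus Salmonella against control libraries it was -0.87 ± 0.14 (adjusted p = 2.80e-04).

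P2RY8 values were 9.48, 9.57, 9.87 and 9.69 in sponge plus Salmonella libraries, 9.02, 9.32, 8.73 and 9.25 in Salmonella libraries, and 11.24, 10.67, 10.75 and 10.88 in controls. None of the 3 groups overlapped another. P2RY8 was 3.49-fold lower in Salmonella than in control libraries (log2 difference -1.80 ± 0.17, adjusted p = 3.83e-06) and 2.35-fold lower in sponge plus Salmonella than in control libraries (-1.23 ± 0.17, adjusted p = 1.43e-04). Sponge plus Salmonella libraries were higher than Salmonella libraries by 0.57 ± 0.17 (adjusted p = 0.0253), a call that was lost without sponge plus Salmonella replicate 3 or 4 or Salmonella replicate 3 (adjusted p = 0.0572 to 0.0802).

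ADORA3 values were 5.04, 4.59, 4.57 and 5.59 in sponge plus Salmonella libraries, 4.67, 5.64, 5.10 and 5.28 in Salmonella libraries, and 5.66, 6.90, 6.92 and 7.18 in controls. Most values of both treated groups lay under the silent 95th percentile, and all lay below the controls, the closest being Salmonella replicate 2 beside control replicate 1. The difference from control was -1.49 ± 0.34 for Salmonella (adjusted p = 0.00382) and -1.72 ± 0.34 for sponge plus Salmonella (adjusted p = 0.0014). Between the treated groups it was -0.22 ± 0.34 (adjusted p = 0.651, 95% interval -0.96 to 0.51). HRH1 averaged 5.54 ± 0.43 in sponge plus Salmonella libraries, 5.88 ± 0.08 in Salmonella libraries and 6.05 ± 0.20 in controls (SD, n = 4 each), and no comparison passed the threshold, the largest difference being -0.50 for sponge plus Salmonella against control (adjusted p = 0.0999).

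**Figure D2:**
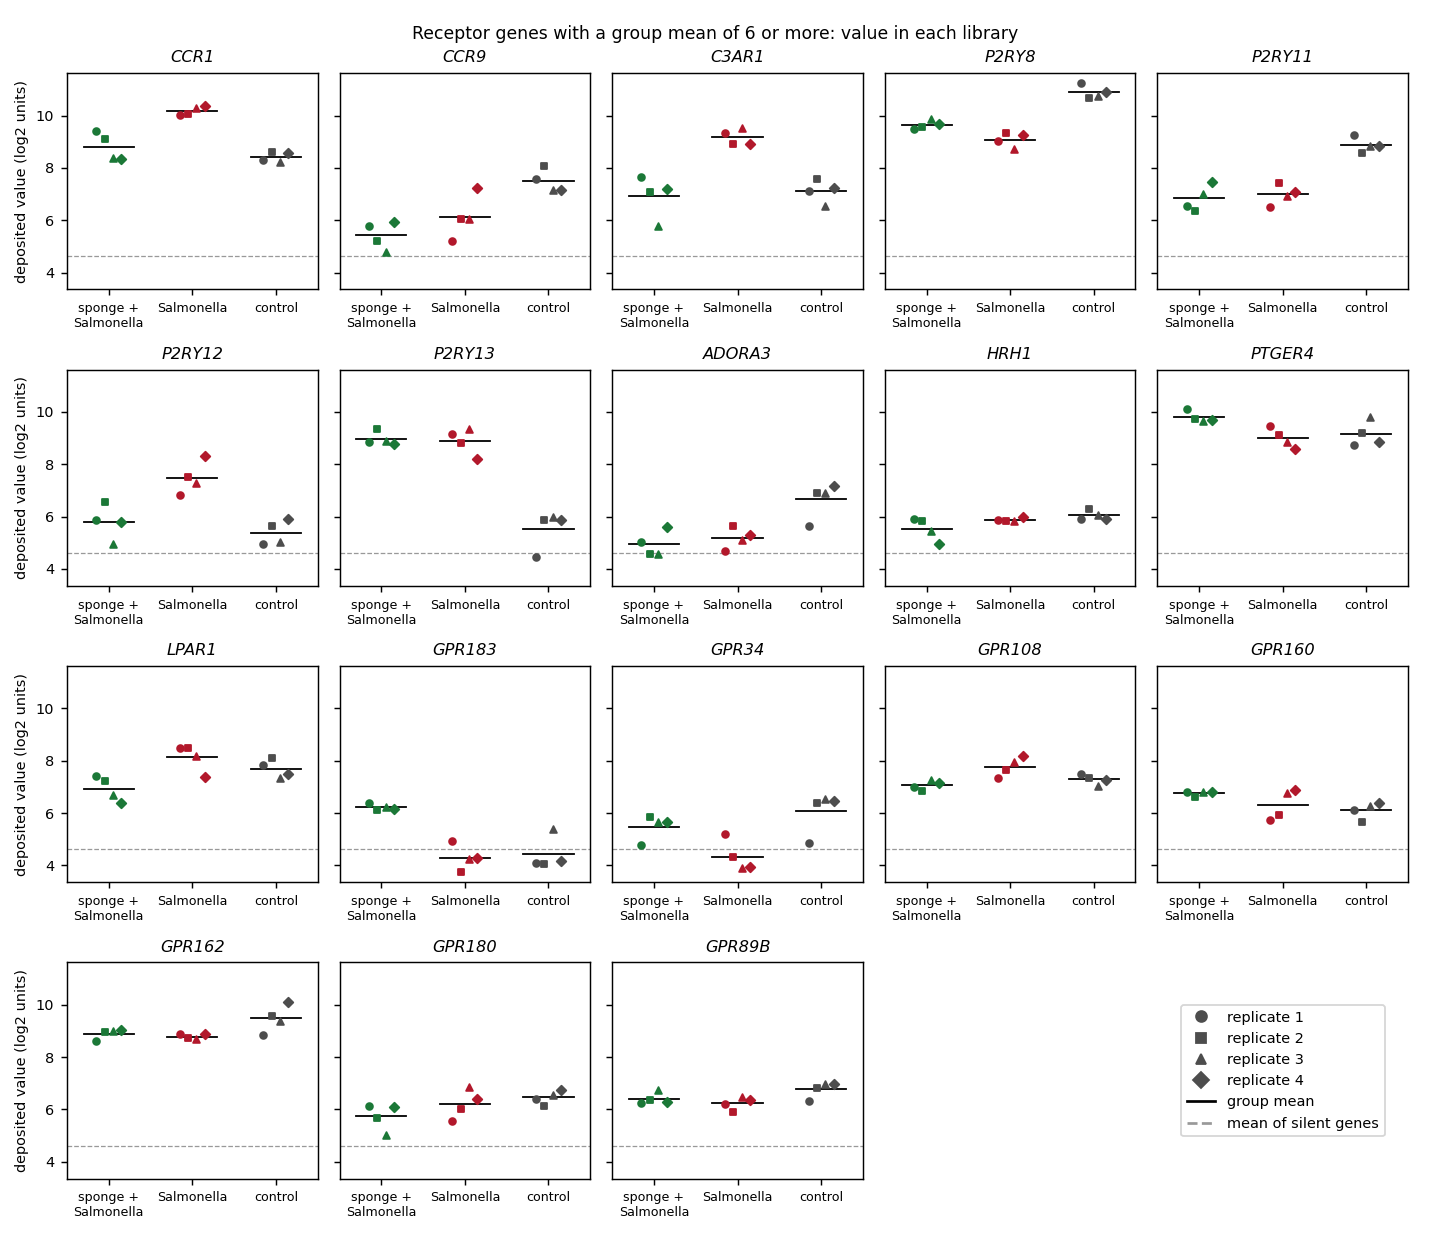
Deposited value (vertical axis, log2 units) of the receptor genes described one by one, in the sponge plus Salmonella, Salmonella and control libraries, with marker shapes for replicates 1 to 4, a bar for the group mean and a dashed line for the silent-gene mean of 4.62. CCR1, C3AR1 and P2RY12 have Salmonella libraries above the other groups, P2RY13 has both treated groups above the controls, and GPR183 has sponge plus Salmonella libraries, at 6.12 to 6.39, above the rest.

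Among lipid receptors, GPR183 and PTGER4 were higher and LPAR1 was lower in sponge plus Salmonella libraries than in either other group. Of the 8 receptors grouped here as sensing lipids and metabolites, 4 rose and 1 fell in sponge plus Salmonella against Salmonella libraries (62.5%, beside 25.0% of all genes), and 3 fell in Salmonella against control libraries (37.5%, beside 33.6%). PTGER4 is a receptor for prostaglandin E2 that raises cyclic AMP. LPAR1 binds lysophosphatidic acid. GPR183, also called EBI2, binds oxysterols and positions B cells, T cells and dendritic cells in lymphoid tissue, and GPR34 is a receptor for lysophosphatidylserine.

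GPR183 values were 6.39, 6.12, 6.22 and 6.17 in sponge plus Salmonella libraries, 4.93, 3.73, 4.24 and 4.30 in Salmonella libraries, and 4.11, 4.07, 5.40 and 4.15 in controls. The sponge plus Salmonella libraries spanned a narrow range above every other library. In the other groups 3 of 4 libraries each lay below the silent-gene mean, so the size of the difference is compressed. It was 1.93 ± 0.29 in sponge plus Salmonella against Salmonella (adjusted p = 4.90e-04) and 1.79 ± 0.29 in sponge plus Salmonella against control (adjusted p = 3.44e-04). Salmonella differed from control by -0.13 ± 0.29 (adjusted p = 0.753). The gene lies on chromosome 11, from 68231851 to 68248627, inside the annotated span of UBAC2, which was not analysed here.

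PTGER4 values were 10.12, 9.74, 9.66 and 9.69 in sponge plus Salmonella libraries, 9.46, 9.11, 8.87 and 8.57 in Salmonella libraries, and 8.72, 9.20, 9.80 and 8.86 in controls. The sponge plus Salmonella libraries lay above the Salmonella libraries, and control replicate 3 reached into their range. PTGER4 was higher in sponge plus Salmonella than in Salmonella libraries by 0.80 ± 0.24 (adjusted p = 0.0237), a call lost without sponge plus Salmonella replicate 1 or Salmonella replicate 3 or 4 (adjusted p = 0.0587 to 0.076). Against control it was higher by 0.66 ± 0.24 (adjusted p = 0.0371), a call lost in 7 of the 12 fits that each left out 1 library (adjusted p = 0.0505 to 0.118) and with median centring.

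LPAR1 values were 7.43, 7.21, 6.69 and 6.38 in sponge plus Salmonella libraries, 8.50, 8.50, 8.19 and 7.36 in Salmonella libraries, and 7.85, 8.10, 7.32 and 7.51 in controls. Salmonella replicate 4 and sponge plus Salmonella replicate 1 overlapped, and as with CCR1 the sponge replicates 1 and 2 were above 3 and 4. Between Salmonella and control libraries LPAR1 differed by 0.44 ± 0.29 and was not called (adjusted p = 0.257). LPAR1 was lower in sponge plus Salmonella than in Salmonella libraries by a log2 difference of -1.21 ± 0.29 (adjusted p = 0.00803). Against control the difference was -0.77 ± 0.29 (adjusted p = 0.0447), and this call was lost in 6 of 12 leave-one-out fits (adjusted p = 0.057 to 0.134) and without the trend of the variance on the mean level (adjusted p = 0.0564).

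GPR34 values were 4.79, 5.84, 5.66 and 5.64 in sponge plus Salmonella libraries, 5.20, 4.31, 3.89 and 3.94 in Salmonella libraries, and 4.85, 6.40, 6.52 and 6.47 in controls. Replicate 1 overlapped between all groups, being high among the Salmonella libraries and low among the others. The Salmonella mean of 4.33 lay below the silent-gene mean, so the size of differences from that group is compressed. Salmonella libraries were lower than controls by a log2 difference of -1.73 ± 0.39 (adjusted p = 0.00319). Sponge plus Salmonella was higher than Salmonella by 1.15 ± 0.39 (adjusted p = 0.0411), which was lost in 6 of 12 leave-one-out fits (adjusted p = 0.0835 to 0.112) and without the variance trend (adjusted p = 0.0595). Against control the difference was -0.58 ± 0.39 (adjusted p = 0.242). GPR34 lies inside CASK on chromosome X, and CASK, a membrane scaffold gene, was also lower in Salmonella than in control libraries, with a log2 difference of -1.17 ± 0.27 (adjusted p = 0.0043).

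A further 5 genes carry GPR symbols without an established ligand. GPR108, a Golgi protein, averaged 7.05 ± 0.19 in sponge plus Salmonella libraries, 7.77 ± 0.35 in Salmonella libraries and 7.28 ± 0.20 in controls. Here and below, ± after a group mean is the SD (n = 4), and ± after a difference is the SE. It was lower in sponge plus Salmonella than in Salmonella libraries by a difference of -0.72 ± 0.20 (adjusted p = 0.0187), a call lost without Salmonella replicate 3 or 4 (adjusted p = 0.0543 and 0.0634). GPR162, an orphan, averaged 8.90 ± 0.19 in sponge plus Salmonella libraries, 8.79 ± 0.11 in Salmonella libraries and 9.48 ± 0.53 in controls, where replicate 4 reached 10.12 and replicate 1 stood at 8.85. Its difference from control was -0.69 ± 0.22 for Salmonella (adjusted p = 0.0228) and -0.58 ± 0.22 for sponge plus Salmonella (adjusted p = 0.0438). The Salmonella call was lost in 4 of 12 leave-one-out fits (adjusted p = 0.0536 to 0.0783). The sponge plus Salmonella call was lost in 10 of 12 (adjusted p = 0.0518 to 0.155, the difference being -0.36 without control replicate 4), and also without the variance trend, with quantile normalization and with only the 2 groups compared (adjusted p = 0.0511, 0.0946 and 0.0716). GPR160, GPR180 and GPR89B, the last coding for a Golgi ion channel despite its symbol, passed the threshold in no comparison; their largest differences were 0.66, -0.72 and -0.54, with adjusted p = 0.0641, 0.0734 and 0.0747.

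**Figure D3:**
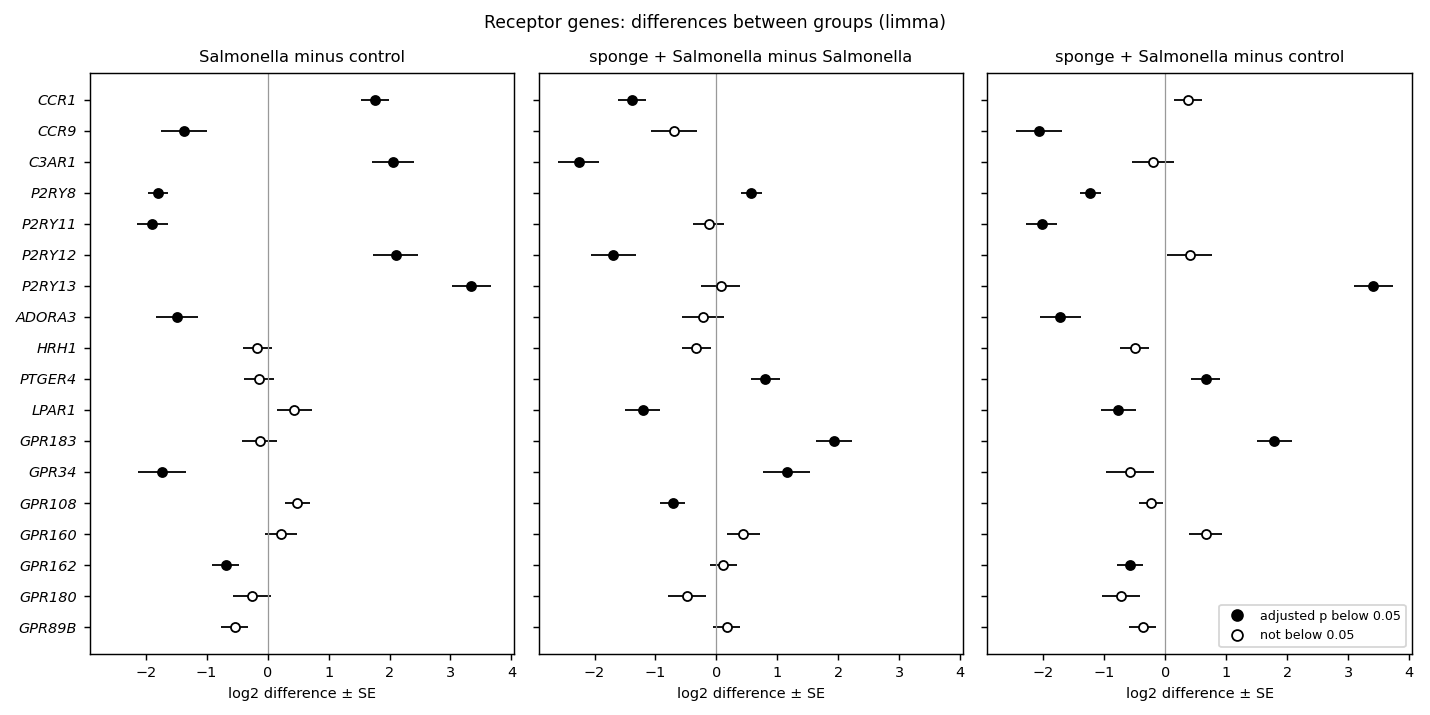
Log2 difference between groups with its standard error (horizontal axis) for the receptor genes described one by one, in the comparisons Salmonella minus control, sponge plus Salmonella minus Salmonella, and sponge plus Salmonella minus control. Filled circles have a limma adjusted p below 0.05; CCR1, C3AR1 and P2RY12 are right of 0 in the first panel and left of 0 in the second, while P2RY13 stands at 3.34, 0.07 and 3.41.

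The 44 receptor genes under 6 in every group took values from 3.78 to 6.94, and 38 of the 44 had every group mean under the silent 95th percentile of 5.24. Values at that level cannot be told from those of silent genes. Several passed the threshold in Salmonella against control libraries. GPR27 and GPR52, orphan receptors known from brain, rose by 0.69 and 0.43. CCR4, GPR82, GPR15, S1PR2, GPR174 and GPR63 fell by 1.10, 0.93, 0.87, 0.56, 0.32 and 0.25. CCR4 is a chemokine receptor of T cells, GPR15 guides T cells to the colon, S1PR2 binds sphingosine 1-phosphate, and GPR174 is a lysophosphatidylserine receptor of lymphocytes. The calls of GPR15, CCR4, GPR27 and GPR63 were each lost in at least 4 of 12 leave-one-out fits. Those of CCR4 and GPR63 were also lost without the variance trend (adjusted p = 0.0555 and 0.0599), and that of GPR27 with median centring (adjusted p = 0.0603).

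In sponge plus Salmonella against Salmonella libraries, GPR15 and CCR4 were higher by 1.18 each. CCR4 averaged 5.82 in sponge plus Salmonella libraries, 4.64 in Salmonella libraries and 5.74 in controls, and its call was lost in 6 of 12 leave-one-out fits (adjusted p = 0.0532 to 0.112) and without the variance trend (adjusted p = 0.0525), whereas GPR15 kept its call in all 12 (highest adjusted p = 0.0264). GPR63, GPR174, GPR45 and CCR8 were higher by 0.78, 0.59, 0.47 and 0.42, and GPR101 and GPR52 were lower by differences of -0.58 and -0.55. Of these the calls of CCR8 and GPR101 were lost in 4 of 12 leave-one-out fits each, and that of CCR8 also with only the 2 groups compared (adjusted p = 0.0515). In sponge plus Salmonella against control libraries, GPR182, GPR27, CCR8, GPR155, GPR63, GPR50, GPR37, GPR45 and GPR174 were higher by 0.27 to 0.81, and GPR143, GPR101, S1PR2 and PTGER1 were lower by differences between -0.66 and -0.38. The higher calls of GPR27, GPR50, GPR37, GPR45 and GPR174 in that comparison were lost when each library was centred on its median (adjusted p = 0.0541 to 0.196). There the calls of GPR45 and GPR174 were also lost without the variance trend (adjusted p = 0.0507 and 0.0677), that of GPR27 with quantile normalization (adjusted p = 0.0511) and that of GPR143 with only the 2 groups compared (adjusted p = 0.0671). Leave-one-out fits ended the calls of GPR143 in 10 of 12, of GPR27 in 5, of GPR174 and GPR182 in 3 each and of GPR37 in 1.

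Several receptor genes lie near each other in the genome, and neighbours did not always move together. On chromosome 13, CCR9, CCR1, CCR2 and CCRL2 lie between 29033609 and 29410508, and of these CCR1, CCR2 and CCRL2 rose with Salmonella while CCR9 fell. CCR2, the receptor for the monocyte attractant CCL2, and CCRL2, an atypical chemokine receptor, are not among the 63. CCR2 differed by 3.10 ± 0.35 in Salmonella against control (adjusted p = 1.56e-05) and by -1.21 ± 0.35 in sponge plus Salmonella against Salmonella (adjusted p = 0.0208). The second call was lost without sponge plus Salmonella replicate 4 or Salmonella replicate 3 or 4 (adjusted p = 0.0663, 0.0699 and 0.05). Farther along, P2RY14, P2RY13 and P2RY12 lie between 91396006 and 91572195. P2RY14, a receptor for UDP-glucose that was also set aside, rose by 5.81 ± 0.56 with Salmonella (adjusted p = 4.42e-06) and was lower with the sponge than with Salmonella alone by a log2 difference of -3.55 ± 0.56 (adjusted p = 7.21e-04), whereas P2RY13 between its neighbours stood at 0.07 in the second comparison. GPR34 and GPR82, 15 kb apart on chromosome X, both fell with Salmonella, as did P2RY11 and S1PR2, 84.2 kb apart on chromosome 2. EIF3G extends into the gap between P2RY11 and S1PR2. Every group mean of S1PR2 lay under the silent 95th percentile. In Salmonella libraries GPR34 and GPR82 averaged 4.33 and 4.37, below the silent-gene mean, so the size of their falls is compressed.

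**Figure D4:**
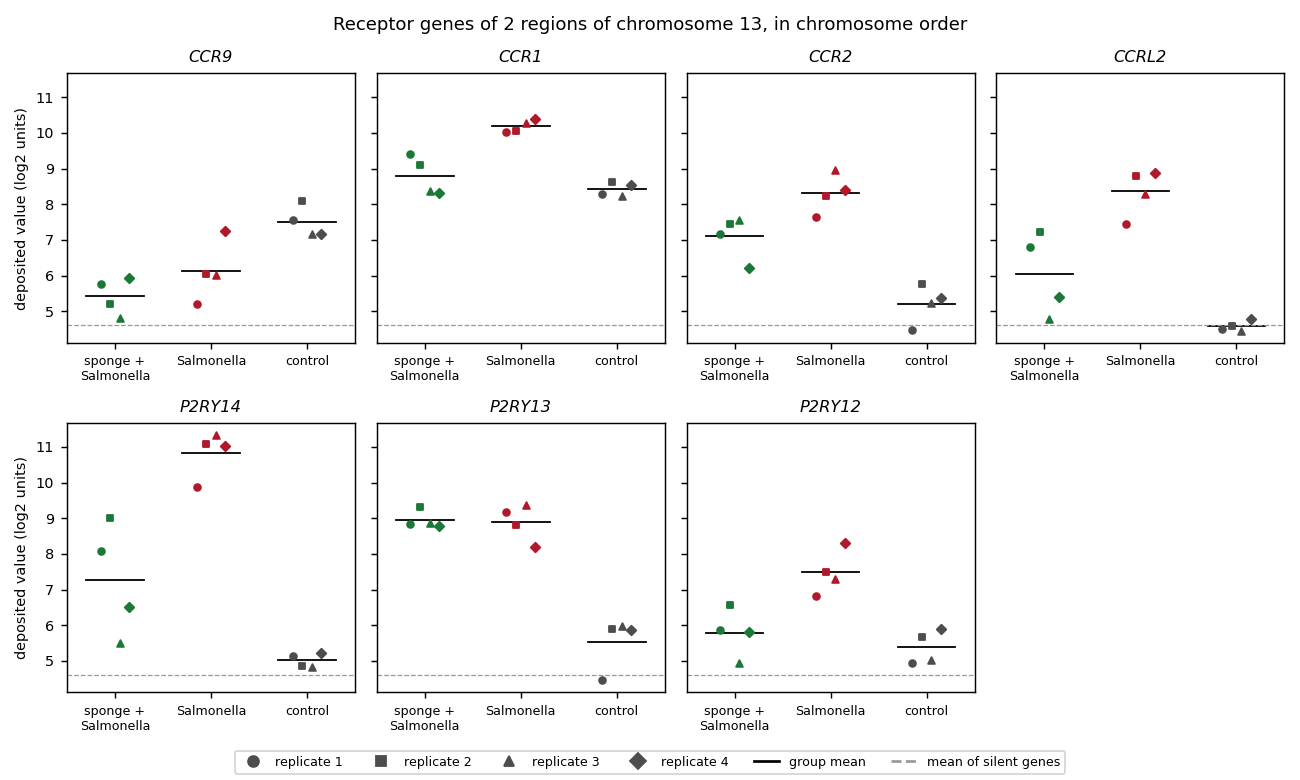
Deposited values (vertical axis, log2 units) of receptor genes in 2 regions of chromosome 13, in chromosome order, in sponge plus Salmonella, Salmonella and control libraries, with marker shapes for replicates 1 to 4, bars for group means and a dashed line for the silent-gene mean. P2RY14 and CCRL2 have Salmonella libraries above the rest and sponge plus Salmonella libraries spread between 5.49 and 9.02, and between 4.77 and 7.22, while P2RY13 has both treated groups between 8.20 and 9.36.

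Genes that act downstream of these receptors, and ligand genes, were looked at by lists. Beside the shares of each list stand 33.6% of all genes called in Salmonella against control, 25.0% in sponge plus Salmonella against Salmonella and 40.9% in sponge plus Salmonella against control. Of 17 heterotrimeric G protein subunits measured, 6 rose and 3 fell in Salmonella against control libraries (52.9%), 3 rose and 1 fell in sponge plus Salmonella against Salmonella (23.5%), and 6 rose and 4 fell in sponge plus Salmonella against control (58.8%). The beta subunit GNB4 and the gamma subunit GNG10 rose by 2.99 ± 0.31 (adjusted p = 8.08e-06) and 3.10 ± 0.48 (adjusted p = 2.16e-04) with Salmonella, both with control means under the silent-gene mean. GNAI3, an inhibitory alpha subunit of the class to which chemokine receptors couple, rose by 1.51 ± 0.22 (adjusted p = 1.52e-04). It did not pass between the treated groups (0.12 ± 0.22, adjusted p = 0.708). GNAI1 and GNAI2, of that class, were not among the genes measured. GNAZ, an alpha subunit of the same class, was higher in sponge plus Salmonella than in Salmonella libraries by 1.09 ± 0.16 (adjusted p = 5.11e-04).

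Of 4 receptor kinases and arrestins, which shut receptors off after activation, 3 rose in Salmonella against control and in sponge plus Salmonella against control (75.0% each, beside 33.6% and 40.9% of all genes): ARRB1, ARRB2 and GRK5, a kinase whose calls were lost in several leave-one-out fits. The arrestin ARRB1 averaged 7.61 ± 0.33 in sponge plus Salmonella libraries, 7.83 ± 0.16 in Salmonella libraries and 6.50 ± 0.21 in controls, with differences of 1.33 ± 0.20 for Salmonella against control (adjusted p = 1.62e-04) and 1.11 ± 0.20 for sponge plus Salmonella against control (adjusted p = 6.61e-04). ARRB2 rose by 0.96 ± 0.24 with Salmonella (adjusted p = 0.00691) and by 0.94 ± 0.24 with sponge plus Salmonella (adjusted p = 0.0071). Between the treated groups ARRB1 differed by -0.22 ± 0.20 (adjusted p = 0.43) and ARRB2 by -0.03 ± 0.24 (adjusted p = 0.943). Of 11 RGS proteins, which speed the switching off of G proteins, 2 fell with Salmonella (18.2%, beside 33.6% of all genes), 2 rose and 1 fell in sponge plus Salmonella against Salmonella (27.3%, beside 25.0%), and 3 rose and 2 fell in sponge plus Salmonella against control (45.5%, beside 40.9%). RGS10 fell by 1.02 with Salmonella (adjusted p = 0.00506) and by 1.35 with sponge plus Salmonella (adjusted p = 7.26e-04), each against control.

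Among 12 effector genes, 1 rose and 4 fell with Salmonella (41.7%, beside 33.6% of all genes), 4 rose and 3 fell in sponge plus Salmonella against Salmonella (58.3%, beside 25.0%), and 1 rose and 3 fell in sponge plus Salmonella against control (33.3%, beside 40.9%). PDE7A, a phosphodiesterase that breaks down cyclic AMP, averaged 8.29 ± 0.63 in sponge plus Salmonella libraries, 7.10 ± 0.43 in Salmonella libraries and 8.36 ± 0.14 in controls, with differences of -1.27 ± 0.28 for Salmonella against control (adjusted p = 0.00291) and 1.19 ± 0.28 for sponge plus Salmonella against Salmonella (adjusted p = 0.00736). PRKACB, a catalytic subunit of the kinase that cyclic AMP activates, fell by 1.35 with Salmonella (adjusted p = 8.36e-04).

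On the ligand side, 6 of 19 chemokine genes rose and 2 fell with Salmonella (42.1%, beside 33.6% of all genes), 5 fell in sponge plus Salmonella against Salmonella (26.3%, beside 25.0%), and 4 rose and 2 fell in sponge plus Salmonella against control (31.6%, beside 40.9%). CXCL10, a ligand of CXCR3, averaged 7.92 ± 2.63 in sponge plus Salmonella libraries, 12.31 ± 1.07 in Salmonella libraries and 5.07 ± 0.88 in controls, and its sponge plus Salmonella libraries ran from 5.45 to 11.24. CCL8, which can bind CCR1 and CCR2 in human cells, was higher in Salmonella than in control libraries by 1.76 ± 0.38 (adjusted p = 0.00261) and lower in sponge plus Salmonella than in Salmonella libraries by a difference of -1.83 ± 0.38 (adjusted p = 0.00383). The genes for other ligands and for the enzymes that make or clear them gave 5 higher and 4 lower of 14 with Salmonella (64.3%), 3 higher and 3 lower in sponge plus Salmonella against Salmonella (42.9%), and 2 of each in sponge plus Salmonella against control (28.6%). PTGS2, the enzyme that begins prostaglandin synthesis, rose by 2.08 ± 0.29 with Salmonella (adjusted p = 9.40e-05) and by 1.93 ± 0.29 with sponge plus Salmonella (adjusted p = 2.37e-04), each against control. ENPP2, also called autotaxin, makes the ligand of LPAR1; it was higher with Salmonella by 1.76 ± 0.31 (adjusted p = 5.96e-04) and lower with the sponge than with Salmonella alone by a difference of -1.40 ± 0.31 (adjusted p = 0.00529). C5, a complement component, followed the direction of C3AR1, at 1.09 ± 0.26 in Salmonella against control (adjusted p = 0.00541) and -1.51 ± 0.26 in sponge plus Salmonella against Salmonella (adjusted p = 0.00132), while C3 was higher with the sponge than with Salmonella alone by 0.67 ± 0.14 (adjusted p = 0.00451).

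Markers of blood cell types were looked at beside the receptors. Of all genes, 15.7% were called higher and 17.9% lower in Salmonella against control, and 11.9% and 13.2% in sponge plus Salmonella against Salmonella. In sponge plus Salmonella against control these shares were 17.9% and 23.0%. They stand beside the counts of every marker list. Monocyte markers had the directions of CCR1 and C3AR1 in Salmonella against control, where 5 of 7 rose, and in sponge plus Salmonella against Salmonella, where 4 of 7 were lower. Against control 4 of 7 were still higher in sponge plus Salmonella libraries, with a median log2 difference of 0.96 over the 7, where CCR1 (0.38) and C3AR1 (-0.20) were not called. Marker levels were also summed as linear values, so the genes with the highest values weigh most in each sum. The summed level of the monocyte markers ran from 13.68 to 14.38 log2 units in sponge plus Salmonella libraries, 14.41 to 14.75 in Salmonella libraries and 13.80 to 14.02 in controls. Sponge plus Salmonella replicates 1 and 2, which were high in CCR1, also had the highest monocyte sums of their group, at 14.38 and 14.15. In Salmonella libraries the orders were opposite. Replicates 1 to 4 had sums of 14.75, 14.55, 14.52 and 14.41 beside CCR1 at 10.02, 10.06, 10.29 and 10.38. In controls replicate 2 was highest in both, at 14.02 and 8.62. C3AR1 in sponge plus Salmonella libraries was highest in replicate 1 (7.66), but higher in replicate 4 (7.18) than in replicate 2 (7.06). Of the T cell markers, 9 of 10 fell with Salmonella, as did CCR9, CCR4 and GPR15. GPR183 (-0.13, adjusted p = 0.753) and the chemokine receptor CCR8 (0.18, adjusted p = 0.307) were not called there. Every group mean of GPR15 and CCR8 lay under the silent 95th percentile, where values cannot be told from those of silent genes. With the sponge 8 of 10 T cell markers were higher than with Salmonella alone (median log2 difference 0.89 over the 10). So were CCR4, GPR15, GPR183 and CCR8, while CCR9 had a difference in the opposite direction that was not called (-0.70, adjusted p = 0.193). Against control 1 of the T cell markers was higher and 5 were lower in sponge plus Salmonella libraries. There CCR9 was lower, while CCR4 (0.09, adjusted p = 0.868) and GPR15 (0.30, adjusted p = 0.394) were not called. GPR183 (1.79, adjusted p = 3.44e-04) and CCR8 (0.60, adjusted p = 0.00195) were higher in that comparison. The T cell sums were 12.51 to 13.11 in sponge plus Salmonella libraries, 11.75 to 12.18 in Salmonella libraries and 13.25 to 13.90 in controls.

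B cell markers had the directions of P2RY8, as had most called T cell, NK and cytotoxic, and eosinophil and basophil markers. Both of the 2 measured B cell genes fell with Salmonella, and both were higher with the sponge than with Salmonella alone. In sponge plus Salmonella against control libraries 1 of them was lower. The B cell sums were 11.20 to 11.57 in sponge plus Salmonella libraries, 9.23 to 9.78 in Salmonella libraries and 11.89 to 12.72 in controls. ADORA3 and GPR34 fell with Salmonella, as did most T cell, B cell, and NK and cytotoxic markers. So did 5 of 6 eosinophil and basophil markers. With the sponge 3 of 6 were higher than with Salmonella alone, as was GPR34, while ADORA3 was not called (-0.22, adjusted p = 0.651). Against control 3 of 6 were lower in sponge plus Salmonella libraries, as was ADORA3, while GPR34 was not called, with sums of 10.03 to 11.01 in sponge plus Salmonella libraries, 8.89 to 9.15 in Salmonella libraries and 11.33 to 12.05 in controls. Of the platelet markers, 5 of 7 were higher with Salmonella, as was P2RY12, and 2 were higher and 1 lower with the sponge against Salmonella, where P2RY12 was lower, with sums of 12.80 to 13.30 in sponge plus Salmonella libraries, 12.64 to 13.75 in Salmonella libraries and 12.02 to 12.35 in controls. The part of these markers in the receptor results was not tested.

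The other marker lists are given for the makeup of the libraries, beside the same shares of all genes. All 5 NK and cytotoxic markers fell with Salmonella (sums of 12.61 to 13.28, 12.29 to 13.48 and 14.12 to 14.86 in sponge plus Salmonella, Salmonella and control libraries). Neutrophil markers were split, with 2 of 9 higher and 2 lower with Salmonella (44.4%, beside 33.6% of all genes). Their sums were 11.02 to 12.51, 11.54 to 12.05 and 11.57 to 12.64 in the same order of groups. Red cell markers ran from 9.33 to 11.97 in sponge plus Salmonella libraries, 12.15 to 13.12 in Salmonella libraries and 11.15 to 11.99 in controls, and all 3 were lower with the sponge than with Salmonella alone. Of 4 dendritic cell markers 2 fell with Salmonella, with sums of 7.64 to 8.02, 7.41 to 7.93 and 8.07 to 8.73. No value in the table was 0, the lowest being 2.13, so this does not tell whether a marker was expressed. Several defining markers, such as CD14, CD4 and MS4A1, had no entry under those symbols.

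**Figure D5:**
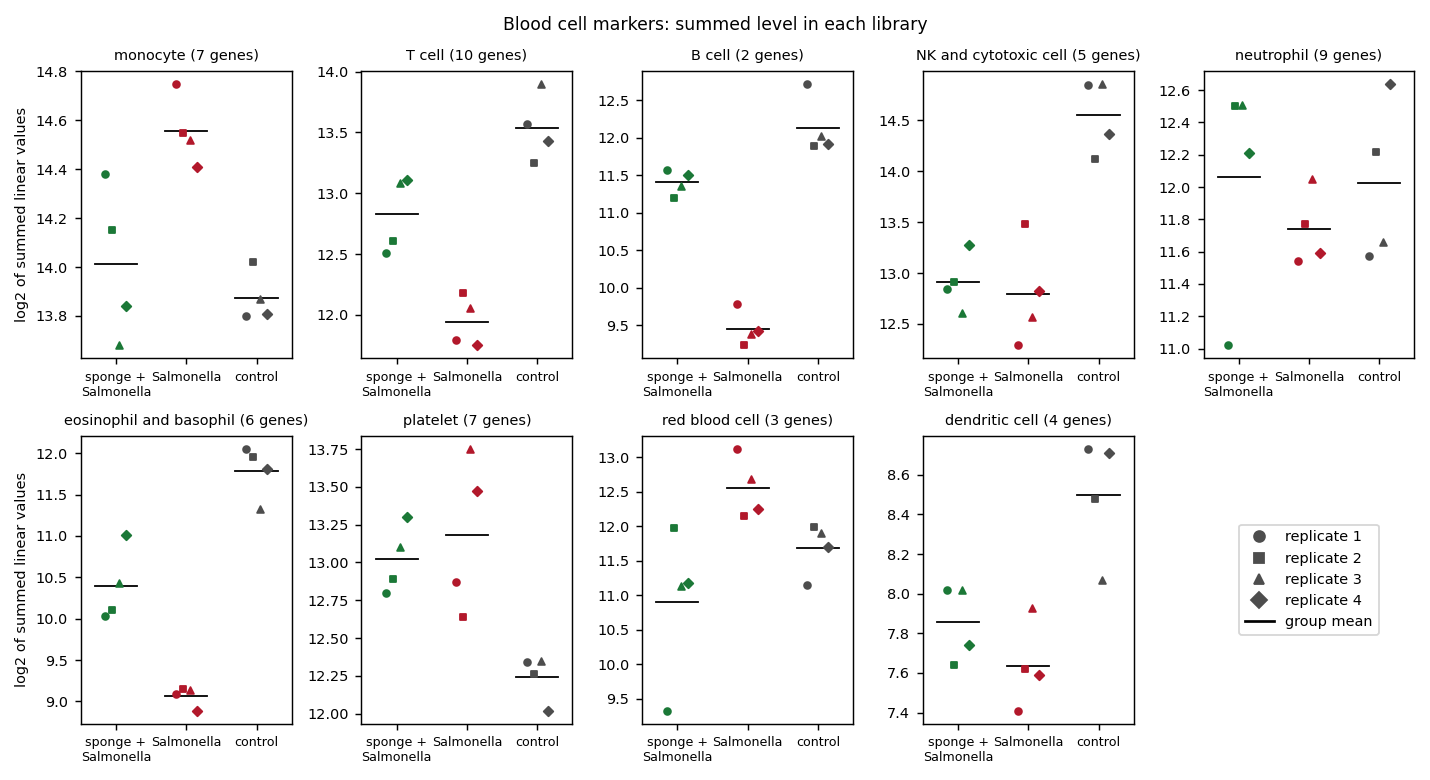
Summed level of each list of blood cell markers (vertical axis, log2 of the summed linear values) in the sponge plus Salmonella, Salmonella and control libraries, with marker shapes for replicates 1 to 4 and a bar for the group mean; vertical axes differ between panels and do not start at 0. The monocyte panel has Salmonella libraries at 14.41 to 14.75 above both other groups, and the B cell panel has sponge plus Salmonella libraries at 11.20 to 11.57, between Salmonella at 9.23 to 9.78 and control at 11.89 to 12.72.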

How the data were processed

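The authors deposited 1 table of 7480 gene symbols by 12 libraries, with values between 2.13 and 15.01 on a log scale. The deposited values are taken as log2; the base is not stated. Per the labels' protocols, PAXgene extraction gave RNA with integrity numbers above 8, which went into TruSeq libraries. Per the labels, these were sequenced as single reads of 50 bases. Bowtie, R 3.4.2 and the build Sscrofa11.1 are named in the submitters' processing notes. How reads were counted, by strand or not, normalized and filtered is not given in the sources used here, so depth and counting error are unknown.

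All genes were fitted together on the deposited values (limma 3.58.1, R 4.3.3), with 12 libraries and 3 group means in 1 fit and a trend of the variance on the mean level. Standard errors are moderated. A call is an adjusted p under 0.05, by Benjamini-Hochberg over the 7480 genes. No count model was used, because the values are not counts. The script was checked on simulated data. Members with a mean of 6 or more in at least 1 group were named, together with those under 6 that were called, except for a few genes that are counted but not reported here; of each signalling list the 3 genes with the smallest p were eligible in each comparison. The members, gene lists and the naming rule were chosen with earlier results of these data known. CD3D, the neighbours CCR2, CCRL2 and P2RY14, and EIF3G, CASK and XCR1 were named for their position or as markers. Alternatives were fits without the trend, median centring, quantile normalization, a mean of at least 5, only the 2 groups compared, a replicate block, and leaving out each library. Positions are those of the pig gene table for Sscrofa11.1, in which 61 of the 63 members had coordinates. Member sequences were not used here.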

Additional observations from a re-analysis of the deposited data

Results flagged for a closer look

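Of the 57 groups of 4 libraries examined for the 19 named receptor genes, 4 (7.02%) held a library far from its group, where chance gives about 1 in 20. GPR183 stood at 5.40 in control replicate 3, with the other controls between 4.07 and 4.15. PTGER4 stood at 10.12 in sponge plus Salmonella replicate 1, with the others of that group between 9.66 and 9.74. GPR34 stood at 4.85 in control replicate 1, with the other controls between 6.40 and 6.52. P2RY13 stood at 4.46 in control replicate 1, with the other controls between 5.86 and 5.97. Control replicate 1 was thus the low library for both GPR34 and P2RY13, and both kept their Salmonella against control call without it.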

How the results depend on the processing

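The values hold no depth, the sponge plus Salmonella columns hold mostly tied values, and most receptor genes lie near background, which limits every small difference here. With genes of a mean of at least 5, which leaves 23 of the 63 receptor genes, 13, 10 and 10 were called in Salmonella against control, sponge plus Salmonella against Salmonella and sponge plus Salmonella against control, beside 20, 18 and 23 of 63. These are 56.5%, 43.5% and 43.5% of the 23, where 50.4%, 32.8% and 50.7% of the 4144 genes of that setting were called. The medians were -0.171, -0.135 and -0.367, beside -0.009, -0.020 and -0.082, and signalling genes called in sponge plus Salmonella against control were 20, beside 32. Fewer genes are tested in that setting. With median centring the median was -0.097 in Salmonella against control and -0.204 in sponge plus Salmonella against control, and with quantile normalization -0.064 in Salmonella against control; the cause was not tested. Over fits that left out 1 library, receptor calls ran from 15 to 21, 12 to 18 and 16 to 23 in the same order of comparisons, and all genes called from 1991 to 2624, 1325 to 2013 and 2441 to 3139. The lowest of the second range, 12, came without Salmonella replicate 3 and also without Salmonella replicate 4. Signalling genes called ran from 29 to 37, 15 to 25 and 26 to 33, the 15 being without Salmonella replicate 2, where 25 were called with all libraries. The medians ran from -0.021 to 0.018, -0.047 to -0.004 and -0.112 to -0.028, the last being without sponge plus Salmonella replicate 1. Uncalled differences near 0 changed sign when a library was left out: GPR183 (-0.34 to 0.19) and PTGER4 (-0.29 to 0.08, and 0.00 without Salmonella replicate 4) in Salmonella against control, P2RY11 (-0.34 to 0.03) and P2RY13 (-0.16 to 0.23) in sponge plus Salmonella against Salmonella, and C3AR1 (-0.44 to 0.18) in sponge plus Salmonella against control. With a replicate block, 19, 15 and 24 receptor genes were called, and of the receptor calls named, those of GPR34 (adjusted p = 0.0587) and CCR4 (0.0523) in sponge plus Salmonella against Salmonella, CCR4 in Salmonella against control (0.0561) and GPR143 in sponge plus Salmonella against control (0.0725) were not made. Same-numbered libraries of different groups had correlations of deviations from -0.36 to 0.38, over 0.1 in 2 of 12 pairs. Different-numbered libraries had correlations from -0.42 to 0.50, over 0.1 in 10 of 36 pairs. These ranges overlap, so they cannot tell whether the numbers pair the samples. CXCL10 fell short in sponge plus Salmonella against control without sponge plus Salmonella replicate 1 (1.75, adjusted p = 0.0712; 2.86 with all libraries), and also without sponge plus Salmonella replicate 2, control replicate 2 or 3, or the trend (adjusted p = 0.0753, 0.0505, 0.0721 and 0.0521).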
